A study of Mus musculus with 9 samples.

Results

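The comparison described here sets neurons of P301S tau mice that received the Cdk5i peptide against neurons of P301S tau mice that received a scrambled peptide. The libraries were chosen by their sample titles, 3 for each peptide, so that 6 of the 9 libraries of the series enter the comparison. None of the tests compares the 3 wild-type libraries with a peptide group. They took part in filtering and scaling the counts and in estimating the shared spread between libraries, and they give a reference level. All 55401 genes of the deposited count tables were considered, of which 16046 had enough counts to be tested.

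Cdk5 is a kinase of neurons that needs a partner protein, p35 (gene Cdk5r1) or p39 (gene Cdk5r2), to become active. Cleavage of p35 by calpain releases p25, which keeps the kinase active for longer and away from its usual place in the cell, and tau is among the proteins that it phosphorylates. The Cdk5i peptide derives from the kinase's own sequence and was made to interfere with Cdk5 bound to p25, while a scrambled peptide has the same building blocks in another order. P301S is a tau mutation that causes inherited frontotemporal dementia, and mice with such a transgene develop tau inclusions and lose neurons as they age.

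Both groups of mice carried the P301S Tau transgene and were aged 7 to 9 months, and both were injected into the peritoneum every second day with 20 mg of peptide per kg of body weight. They differed in the peptide, either Cdk5i or the scrambled control. Wild-type animals of the same age range had no transgene and no treatment, so genotype and injection cannot be told apart in any comparison with them. The transgene's promoter, the sex of the mice and the length of the treatment are not given in the sources used here. Nuclei carrying NeuN, the protein of Rbfox3 that marks neuronal nuclei, were sorted from cortex and their total RNA was sequenced. The labels number the libraries of a group as replicates without saying that each came from another animal, and p-values therefore measure how far these libraries differ, which may be technical.

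Totals ran from 21584712 to 26715938 counts per library. Rbfox3, the gene of the sorted protein, measured between 1235 and 1558 CPM (counts scaled to library size) in the 6 P301S libraries. The microglial genes C1qa and Tyrobp and the endothelial gene Cldn5 had at most 2 counts in any of these libraries. Of 15 listed microglial markers, 7 had enough counts to be tested. Of these 7, 4 were higher with Cdk5i, and their summed level was 59.1 to 136 CPM. The main axis of variation among the 6 libraries, which held 29.7% of the variance, did not follow the peptide. It placed scrambled replicates 1 and 2 with Cdk5i replicate 3 on one side and scrambled replicate 3 with Cdk5i replicates 1 and 2 on the other. A lesser axis, which held 19.0% of the variance, kept the groups apart. On it the scrambled libraries ran from -17.8 to -7.59 and the Cdk5i libraries from -1.55 to 26.9, and this was not tested. Mitochondrially encoded genes made up 0.0793 to 0.137% of the counts.

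Only 2 genes differed between the peptides at an adjusted p under 0.05 in edgeR's quasi-likelihood test, 0.0125% of the 16046 tested, and both were higher with Cdk5i. They were Mob3b and Gm9866. Mob3b belongs to the MOB family of small adaptor proteins, some of which bind and activate kinases. Gm9866 is a long intergenic non-coding RNA of unknown function. No gene was lower at that threshold in edgeR or in limma-voom, while 395 had an unadjusted edgeR p under 0.05 and DESeq2 called 6. DESeq2 also called 21 genes higher, and edgeR without a filter on low counts called 124 higher and 35 lower.

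Mob3b (ENSMUSG00000073910) spans chr4:34949074-35157484 of GRCm38 on the minus strand, with introns counted as part of the gene. Gm9866 (ENSMUSG00000094002) spans chr12:27050950-27160633 on the same strand. The 300 bases around the RefSeq start of each, from 250 bases before it to 50 after it, are shown because these are the only genes that passed the test. For Gm9866 the RefSeq start lies inside the span given above. The sequences are those of GRCm38.p6, written 5′ to 3′ along the gene, with CpG dinucleotides and any match to the CCAAT box in capitals. The window of Mob3b is chr4:35157435-35157734 and that of Gm9866 is chr12:27160467-27160766.
Mob3b: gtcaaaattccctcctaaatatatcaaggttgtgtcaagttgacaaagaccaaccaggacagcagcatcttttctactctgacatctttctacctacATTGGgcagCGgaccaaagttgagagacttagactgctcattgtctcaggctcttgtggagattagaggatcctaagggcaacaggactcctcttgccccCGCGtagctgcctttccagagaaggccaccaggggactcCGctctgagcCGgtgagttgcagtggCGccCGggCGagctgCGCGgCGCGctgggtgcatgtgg
Gm9866: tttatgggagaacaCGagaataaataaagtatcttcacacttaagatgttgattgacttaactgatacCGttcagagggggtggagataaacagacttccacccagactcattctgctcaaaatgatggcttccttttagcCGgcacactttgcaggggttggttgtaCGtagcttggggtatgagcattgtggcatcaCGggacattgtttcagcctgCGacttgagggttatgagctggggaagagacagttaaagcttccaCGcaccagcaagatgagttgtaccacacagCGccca

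The Mob3b window held 12 CpG dinucleotides, gathered near the start, and 54.7% G and C, while the Gm9866 window held 8 CpG dinucleotides and 47% G and C. Over 32851 such windows of the mouse genome the median was 7 CpG dinucleotides, and 39.6% had at least as many as Mob3b. Searched on both strands, CCAAT matched in the Mob3b window 1 time and not in the Gm9866 window, and 37.4% of all windows held a match. The TATA box letters TATAAA, held by 13.6% of all windows, matched in neither window. The same was true of the GC box letters GGGCGG (35.7%), of the E-box CACGTG (7.15%), of the CRE letters TGACGTCA (1.79%) and of the MEF2 motif (0.557%).

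Mob3b measured 5.51, 7.55 and 8.01 CPM in scrambled replicates 1, 2 and 3, and 58.8, 52.0 and 55.8 CPM in Cdk5i replicates 1, 2 and 3. These rest on 143, 172 and 202 counts with the scrambled peptide and 1317, 1365 and 1460 counts with Cdk5i. Every Cdk5i library lay far above every scrambled library, and the 3 Cdk5i libraries were close to one another. Mob3b rose from 7.03 ± 1.33 to 55.5 ± 3.40 CPM (SD, n = 3), with a 95% interval of the log2 fold change from 2.55 to 3.42 (edgeR adjusted p = 9.83e-04). Wild-type libraries measured 6.12, 9.69 and 5.63 CPM, so that the scrambled libraries lay within the wild-type range or next to it and the Cdk5i libraries outside it. No other gene shares the strand over the span of Mob3b. On the opposite strand, Ifnk had no count in the 6 libraries and Gm12364 had 1, so reads of those genes add nothing to the count.

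The MOB family and the Hippo and NDR kinases that MOB proteins bind were examined as a list of 17 genes, of which 16 were tested. Mob3b was the only member past the threshold, and the list had a median of 0.04 on the log2 scale, beside -0.01 over all genes tested. Mob3a and Mob3c, the closest relatives of Mob3b, had log2 fold changes of 0.16 (95% interval -0.27 to 0.59) and 0.20 (-0.24 to 0.64). Mob1a and Mob1b, which activate the LATS and NDR kinases, stood at 0.22 (-0.02 to 0.45) and 0.04 (-0.11 to 0.20), and Mob2 and Mob4 at -0.08 each. None of these intervals includes the difference seen for Mob3b. Among the kinases, Stk38, which encodes NDR1, measured 55.9, 54.4 and 53.5 CPM with the scrambled peptide and 60.0, 56.3 and 60.0 CPM with Cdk5i. Lats1 had a log2 fold change of 0.04, Stk4 of 0.01 and Stk3 of -0.08. Yap1, the coactivator that the Hippo pathway restrains, measured 8.44, 11.3 and 8.01 CPM with the scrambled peptide and 12.5, 10.2 and 12.9 CPM with Cdk5i. The Yap1 groups overlapped, and its log2 fold change of 0.37 did not pass after adjustment.

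Gm9866 measured 34.8, 31.7 and 40.3 CPM in scrambled replicates 1 to 3, and 62.2, 61.7 and 66.4 CPM in Cdk5i replicates 1 to 3. All 3 Cdk5i libraries were higher than all 3 scrambled libraries. Gm9866 rose by 0.83 on the log2 scale, with a 95% interval from 0.66 to 1.01 (edgeR adjusted p = 9.83e-04). In the wild-type libraries the level was 59.8, 63.9 and 63.5 CPM. It was thus the scrambled libraries that stood apart for Gm9866, and the Cdk5i libraries that stood apart for Mob3b.

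**Figure D1:**
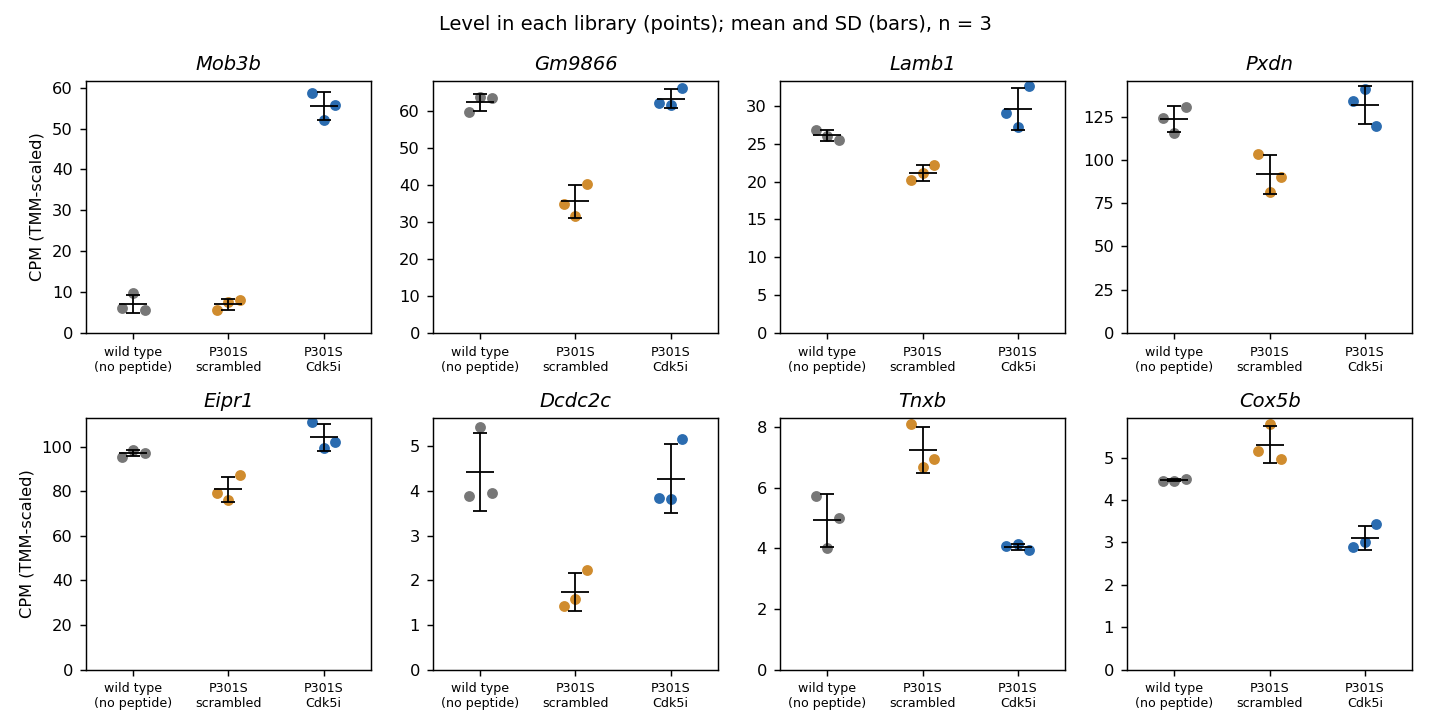
Level of 8 genes in CPM (vertical axis, from 0) in each library (points), with the mean and SD of 3 libraries (horizontal and vertical bars), for wild-type, scrambled peptide and Cdk5i groups. Mob3b lies between 52.0 and 58.8 CPM with Cdk5i and below 10 CPM elsewhere, while Gm9866, Lamb1, Pxdn, Eipr1 and Dcdc2c are lowest with the scrambled peptide.

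Genes around Gm9866 leaned the same way. Of 49 tested genes within 5 Mb of it, 34 were higher with Cdk5i, and their median log2 fold change was 0.10, beside 47.2% higher and a median of -0.01 over all genes. At an unadjusted p under 0.05, 17 were higher and 3 lower, where 2.87% of all tested genes were higher and 2.46% lower. None passed after adjustment in edgeR. For 13 the Cdk5i libraries lay above the scrambled libraries without overlap and for 3 below, where these shares were 4.95 and 5.38% over all genes. The window was wider than the one used around Mob3b, and nothing shows that its width was set before the values were seen. The shares over all genes are therefore given for description only, and the lean of this region was not tested.

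The non-coding gene Gm31508 measured 19.9, 19.4 and 43.5 CPM with the scrambled peptide and 81.2, 73.6 and 81.0 CPM with Cdk5i. Scrambled replicate 3 stood between the other scrambled libraries and the Cdk5i libraries. The edgeR adjusted p of Gm31508 was 0.667 with all libraries, while the gene passed the threshold without that replicate. DESeq2 called it with all libraries. Pxdn encodes peroxidasin, which crosslinks collagen IV in basement membranes, and measured 103, 81.2 and 90.2 CPM against 134, 141 and 120 CPM. Eipr1, whose product takes part in recycling from endosomes, measured 79.3, 76.0 and 87.1 CPM against 111, 99.4 and 102 CPM. Neither gene overlapped between the groups, and both belong to the higher genes described below, whose choice required this. Lamb1, the gene of the laminin beta-1 chain of basement membranes, measured 20.2, 21.1 and 22.3 CPM against 29.1, 27.2 and 32.7 CPM. In Dcdc2c, which encodes a doublecortin-domain protein, 1.43, 1.58 and 2.22 CPM stood against 3.84, 3.81 and 5.16 CPM. For each of these 4 genes the wild-type mean, 123 CPM for Pxdn, 97.0 for Eipr1, 26.1 for Lamb1 and 4.42 for Dcdc2c, lay above every scrambled library. Their edgeR adjusted p-values were 0.116, 0.131, 0.114 and 0.114. DESeq2 called all of these 4 genes.

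The interval held further genes on both sides. The non-coding genes Gm47860 and Gm20208 had log2 fold changes of 1.52 and 1.03, without overlap between the groups. Trappc12, the gene of a vesicle-tethering subunit, had a log2 fold change of 0.17 and Acp1, which encodes a small phosphatase, one of 0.49. The transcription factor gene Sox11 measured 8.37, 7.64 and 8.77 CPM with the scrambled peptide and 8.71, 10.4 and 11.7 CPM with Cdk5i, and the groups overlapped. Myt1l, a large neuronal transcription factor gene in the same interval, had a log2 fold change of 0.10 with a 95% interval from -0.09 to 0.29. Lower values were found for the non-coding gene Gm4425, with 1.66, 1.76 and 1.19 CPM against 1.03, 0.229 and 0.0382 CPM, and for Gm20472, an unprocessed pseudogene, with 2.24, 2.02 and 1.11 CPM against 1.16, 0.191 and 0.0764 CPM. Both passed the edgeR threshold once Cdk5i replicate 1 was left out, and reads of a pseudogene may be shared with its parent gene.

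Within 1 Mb of Mob3b, 10 genes were tested and 8 were higher with Cdk5i (median log2 fold change 0.07). C9orf72, which lies beyond the start of Mob3b on the same strand and whose repeat expansion in people causes frontotemporal dementia and motor neuron disease, measured 23.5, 23.1 and 25.7 CPM with the scrambled peptide and 29.5, 29.0 and 31.7 CPM with Cdk5i. Its groups did not overlap and its log2 fold change was 0.32 (edgeR adjusted p = 0.493). Smim8, which encodes a small membrane protein, measured 1.70, 2.15 and 1.55 CPM against 2.81, 2.17 and 3.06 CPM. Zfp292, Lingo2 and Orc3 had log2 fold changes of 0.06, 0.07 and 0.03. No tested neighbour had a fold change near that of Mob3b.

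Below these 2 genes the ranking held 14 further annotated genes that were higher with Cdk5i without overlap, chosen as those of lowest p with at least 50 counts on average. They had log2 fold changes of 0.31 to 1.29, and none passed the threshold in edgeR (edgeR adjusted p from 0.114 to 0.491). DESeq2 called all of them except Bcl2l15 and Ring1. Zfp951, a zinc finger gene, measured 5.98, 3.51 and 5.04 CPM with the scrambled peptide and 8.88, 11.1 and 9.39 CPM with Cdk5i. Wild-type libraries measured 8.92, 11.1 and 10.9 CPM, again above the scrambled libraries. Creb5, a transcription factor of the CREB family, measured 8.17, 6.63 and 6.94 CPM against 10.5, 11.2 and 10.8 CPM, with a wild-type mean of 7.79 CPM. For Creb5 it was the Cdk5i libraries that lay outside the other 6, as they did for Bcl2l15, a relative of the apoptosis regulator BCL2, at 7.91 ± 0.355 CPM with Cdk5i and 5.31 ± 0.390 CPM with the scrambled peptide (SD, n = 3), with a wild-type mean of 5.17 CPM.

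Among the other genes of the 14, Dscaml1, a homophilic adhesion molecule of neurons, measured 593, 500 and 512 CPM with the scrambled peptide and 740, 768 and 651 CPM with Cdk5i. Igsf21, a synaptic adhesion protein of the immunoglobulin family, measured 112, 101 and 108 CPM against 143, 155 and 125 CPM. In both genes the groups did not overlap, which the choice of the 14 genes required. Thsd7a, a membrane protein with thrombospondin repeats, had a log2 fold change of 0.31, the matrix gene Smoc2 one of 0.40, and St3gal1, a sialyltransferase that caps sugar chains, one of 0.45. Adarb2, which encodes a brain protein that binds double-stranded RNA and marks a class of interneurons, measured 694, 670 and 735 CPM against 907, 944 and 810 CPM. Ring1, a ubiquitin ligase of Polycomb complex PRC1, measured 5.90, 4.83 and 5.43 CPM against 7.63, 9.22 and 7.33 CPM.

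On the other side stood 15 annotated genes that were lower with Cdk5i without overlap, with log2 fold changes of -0.97 to -0.23 and edgeR adjusted p-values from 0.128 to 0.667. Tnxb, the gene of the matrix protein tenascin-X, measured 8.10, 6.67 and 6.94 CPM with the scrambled peptide and 4.06, 4.15 and 3.93 CPM with Cdk5i, a log2 fold change of -0.84 (95% interval -1.16 to -0.52). Cox5b, a nuclear-encoded subunit of cytochrome c oxidase, measured 5.17, 5.79 and 4.96 CPM against 2.90, 3.01 and 3.44 CPM, a log2 fold change of -0.76 (-1.07 to -0.46). The wild-type means, 4.92 CPM for Tnxb and 4.47 CPM for Cox5b, lay between the peptide groups. DESeq2 called both genes.

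The other genes of the 15 had larger adjusted p-values. Maob, the monoamine oxidase that breaks down dopamine and phenylethylamine, measured 5.40, 6.10 and 5.67 CPM with the scrambled peptide and 3.48, 3.09 and 3.93 CPM with Cdk5i. Aldh1a1, which makes retinoic acid from retinaldehyde, measured 6.67, 5.57 and 4.96 CPM against 3.48, 3.43 and 4.28 CPM. Pnpla8, a phospholipase, had a log2 fold change of -0.25. Cbx7, a Polycomb protein of PRC1 like Ring1, measured 21.9, 22.0 and 18.4 CPM against 16.5, 16.7 and 15.5 CPM. Fbn1, the gene of fibrillin-1 in matrix microfibrils, measured 51.2, 46.2 and 44.9 CPM against 33.3, 35.9 and 42.5 CPM. Nbl1, a secreted antagonist of BMP signals, stood at -0.69 and the imprinted gene Magel2 at -0.97, both at low levels, with scrambled libraries of 2.74 to 4.67 CPM. Others were Gas2, Gpr165, Zfp160, Ninl and Rps15a, with log2 fold changes between -0.66 and -0.23.

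**Figure D2:**
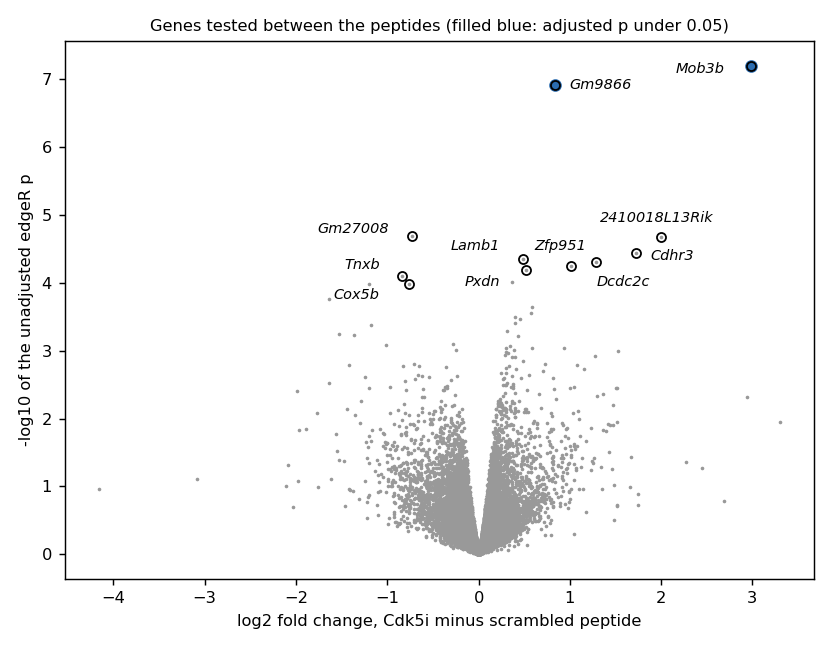
Each point is 1 of 16046 tested genes, with the log2 fold change of Cdk5i minus scrambled peptide on the horizontal axis and -log10 of the unadjusted edgeR p on the vertical axis. Mob3b and Gm9866 (filled) are the only genes past an edgeR adjusted p of 0.05. The next genes named (open circles) had edgeR adjusted p-values of 0.0843 to 0.131.

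The genes of lowest p were not spread evenly over the chromosomes. At an unadjusted p under 0.001 there were 32 genes (0.199% of those tested), 21 of them higher with Cdk5i. Chromosome 12 held 9 of the 32 (28.1%) with 4.18% of the tested genes, chromosome 3 held 7 (21.9%) with 5.08%, and chromosome 17 held 5 (15.6%) with 4.59%. The 9 genes of chromosome 12, from Gm10479 to Pnpla8, lay between 19292813 and 44322532, and 7 of them were higher. Besides those already named they included Cdhr3, a cadherin-related gene, with 0.463, 0.527 and 1.11 CPM against 2.46, 2.25 and 2.29 CPM, and the non-coding gene 2410018L13Rik, with 0.308, 0.307 and 0.476 CPM against 1.07, 1.52 and 1.79 CPM. Wild-type means were 2.12 CPM for Cdhr3 and 1.54 CPM for 2410018L13Rik, close to the Cdk5i level. The lower genes did not share this. Gm10479 had a mean of 1.18 CPM with the scrambled peptide and 0.458 CPM with Cdk5i. Its wild-type mean of 1.16 CPM was close to the scrambled level. For Pnpla8 the wild-type mean of 70.1 CPM lay between 76.2 CPM with the scrambled peptide and 64.3 CPM with Cdk5i. The position of these genes was noticed after their values were seen, and it was not tested. The sources used here do not say how the mice of the 2 groups were related. For any gene here, Mob3b and Gm9866 included, an effect of the peptide and a difference in genetic background therefore cannot be told apart.

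On chromosome 3, the antisense gene Gm27008 measured 15.8 ± 1.54 CPM with the scrambled peptide and 9.49 ± 1.15 CPM with Cdk5i (SD, n = 3), without overlap, with a wild-type mean of 16.4 CPM (edgeR adjusted p = 0.0843). Ptpn22, a phosphatase gene best known from lymphocytes that lies next to Bcl2l15, measured 3.86, 3.03 and 2.22 CPM against 5.80, 5.14 and 6.45 CPM. Igsf3, a membrane protein of the immunoglobulin family, measured 34.5, 31.6 and 33.1 CPM against 46.4, 45.9 and 37.4 CPM. Vmn2r1, a vomeronasal receptor gene, measured 3.47, 2.28 and 2.34 CPM against 0.804, 0.876 and 0.917 CPM. Chromosome 17 held Smoc2, Ring1, Tnxb, the non-coding Gm19585 and Galnt14, an enzyme that starts sugar chains on proteins, and 3 of the 5 were higher with Cdk5i. At p under 0.01, which 1.23% of all genes reached, the shares were 3.26% on chromosome 17, 2.98% on chromosome 12 and 2.21% on chromosome 3. On chromosome 4, where Mob3b lies, the share was 0.514%.

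**Figure D3:**
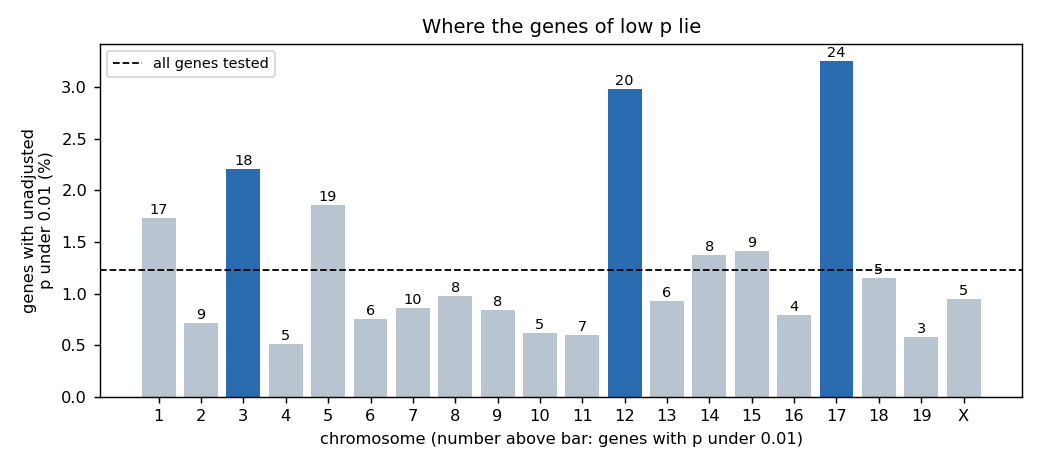
Share of tested genes with an unadjusted edgeR p under 0.01 (vertical axis, percent) on each chromosome (horizontal axis), with the number of such genes above the bar and the share over all genes as a dashed line. Chromosomes 17, 12 and 3 (dark bars, chosen after their values were seen) stand at 3.26, 2.98 and 2.21%, beside 1.23% over all genes.

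Most genes had intervals that bound the difference between the groups. The median half-width of the 95% interval was 0.30 on the log2 scale. For 10376 of the tested genes (64.7%) the interval lay within 1.5-fold in either direction, and for 13422 (83.6%) within 2-fold. An unadjusted p under 0.05 was reached by 855 genes (5.33%), and the 2 groups were fully separate in 1658 (10.3%). Between groups of 3 that do not differ, full separation has a probability of 0.1, and a p under 0.05 one of 0.05. Both shares lay near these values, so separation of a single gene says little by itself.

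The kinase that the peptide is aimed at, and the genes of its partners, showed no difference past the threshold. Cdk5 measured 19.1, 22.0 and 16.1 CPM with the scrambled peptide and 14.8, 18.7 and 16.7 CPM with Cdk5i, and the groups overlapped (log2 fold change -0.19, 95% interval -0.44 to 0.06). Cdk5r1 measured 19.2 ± 0.628 CPM against 17.5 ± 1.09 CPM (SD, n = 3), also with overlap (log2 fold change -0.14, 95% interval -0.30 to 0.03). Cdk5r2 had no count in any library, and all of its span is shared with the gene Gm16582 on the same strand, so its level cannot be read from these counts. Of 13 tested genes of Cdk5 and its regulators 4 were higher, the median being -0.02 on the log2 scale. The calpain genes Capn1, Capn2 and Capns1 and their inhibitor Cast had log2 fold changes of -0.07, -0.03, -0.02 and -0.10. Such values speak of RNA in the nucleus, not of kinase activity.

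Mapt, the mouse gene of tau, measured 245, 228 and 226 CPM with the scrambled peptide and 237, 241 and 230 CPM with Cdk5i. The groups overlapped, and the 95% interval of the log2 fold change ran from -0.11 to 0.15. Wild-type libraries measured 194, 211 and 206 CPM. The transgene had no entry of its own among the counted genes, and whether its reads add to Mapt was not tested. Of 27 tested genes of microtubule-associated proteins 13 were higher, with a median of -0.00. Map1a, which stabilises microtubules in dendrites, measured 139, 167 and 151 CPM against 116, 141 and 142 CPM, a log2 fold change of -0.19. Of 34 tau kinase and phosphatase genes 21 were higher, with a median of 0.02. Among 39 genes whose proteins are described as Cdk5 substrates, 27 were higher, with a median of 0.02 and none past the threshold. Grin2b, the NMDA receptor subunit gene, had the lowest p of them, with 2086, 2089 and 2407 CPM against 2580, 2740 and 2233 CPM.

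Differences between the peptides were ordered by gene length. Of 3899 tested genes under 10 kb, 34.7% were higher with Cdk5i (median log2 fold change -0.08). The share was 39.8% between 10 and 30 kb, 52.1% between 30 and 100 kb, 67.4% between 100 and 300 kb, 80.8% between 300 and 800 kb and 85.6% from 800 kb on. The medians of the last 2 classes were 0.10. Within genes of 10 to 50 CPM the share rose from 32.7% under 30 kb to 77.8% over 300 kb, and within genes above 50 CPM from 34.5 to 84.8%, so that the order was present at both levels. Across genes, log2 fold change and log2 length had a Pearson r of 0.22, a description over 16046 genes that share the same 6 libraries. This r was 0.08 without scrambled replicate 2.

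Library by library the pattern was less clear. The median of genes over 300 kb minus that of genes under 30 kb, each gene on the log2 scale and centred on its own mean, was -0.09, -0.19 and -0.01 in scrambled replicates 1 to 3. It was 0.13, 0.02 and -0.03 in Cdk5i replicates 1 to 3, so that Cdk5i replicate 3 lay below scrambled replicate 3 and the groups overlapped. Wild-type libraries measured 0.05, 0.14 and -0.06. The group means differed by 0.14 (-0.098 ± 0.093 against 0.042 ± 0.083, SD, n = 3), with a two-sided exact permutation p of 0.2, where 0.1 is the smallest that 3 against 3 libraries allow. The share of mitochondrial counts also differed between libraries, with 0.135, 0.137 and 0.0989% in scrambled replicates 1 to 3 and 0.0793, 0.108 and 0.130% in Cdk5i replicates 1 to 3, and its part in the result was not tested.

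**Figure D4:**
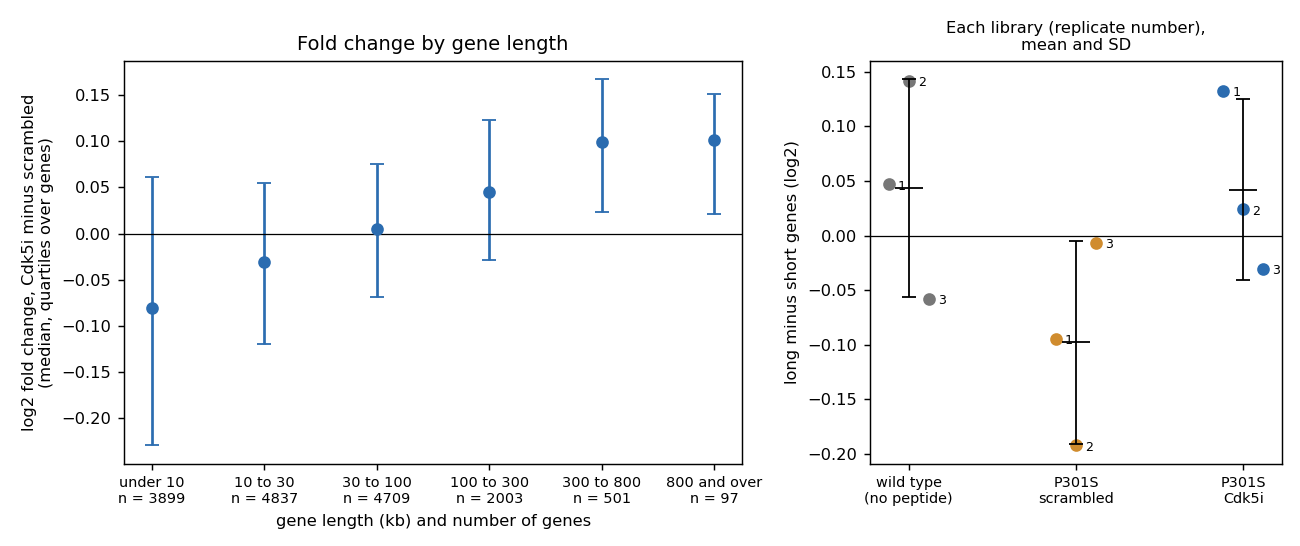
Left, log2 fold change of Cdk5i minus scrambled peptide (vertical axis; points are medians over genes, bars the quartiles) by class of gene length in kb (horizontal axis, with the number of genes). Right, long genes minus short genes on the log2 scale in each library (points with replicate numbers; horizontal and vertical bars are the mean and SD of 3 libraries). The medians rise from -0.08 to 0.10 with length, while the libraries of the 2 peptides overlap, from -0.19 to -0.01 and from -0.03 to 0.13.

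The gene lists below are described by the number of members on each side, the median difference on the log2 scale and the same median after each gene's value was set against the median of all genes of its length class. Over all genes tested 47.2% were higher, 52.8% were lower and the median was -0.01. The share of higher genes also went with level. It was 44.6% of all genes under 2 CPM and 81.0% of those from 200 CPM on, where the median was 0.07. The lists were not set against genes of like level. No list held a member past the threshold in edgeR other than Mob3b.

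Genes of excitatory synapses lay on the higher side, as did most long genes and most genes of high level. Of 33 tested glutamate receptor genes and their auxiliary subunits, 29 lay on the higher side, at a median log2 fold change of 0.13, or 0.06 against genes of like length. At an unadjusted p under 0.05, 7 were higher and 0 lower, and 8 did not overlap between the groups, beside 2.87 and 4.95% over all genes. The summed level of the list was 19189, 19429 and 21066 CPM in scrambled replicates 1 to 3. It was 22703, 21880 and 20480 CPM in Cdk5i replicates 1 to 3, so that the groups overlapped. All 9 auxiliary subunit genes and all 6 NMDA receptor genes were higher, as were 4 of 5 kainate, 3 of 4 AMPA and 5 of 7 metabotropic receptor genes. Leaving out 1 library at a time kept the median between 0.09 and 0.19, the highest without scrambled replicate 3.

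The lowest p-values among them belonged to Cnih3, Grik5 and Shisa9, followed by Shisa6 and Grin2c. Cnih3, a cornichon that slows the closing of AMPA receptors, measured 71.1, 81.4 and 87.7 CPM with the scrambled peptide and 93.5, 115 and 100 CPM with Cdk5i. Shisa9, an AMPA receptor partner, measured 649, 710 and 793 CPM against 935, 834 and 873 CPM. Each Cdk5i library exceeded each scrambled library in both genes. The kainate receptor genes Grik5 and Grik3 measured 135, 150 and 130 CPM against 172, 165 and 162 CPM, and 344, 418 and 430 CPM against 534, 462 and 456 CPM. Grin2c, an NMDA receptor subunit at low level, measured 5.98, 3.99 and 5.83 CPM against 7.01, 8.69 and 6.91 CPM. Log2 fold changes of Cnih3, Shisa9, Grik5 and Grik3 were 0.27 to 0.36, and the lowest edgeR adjusted p among them was 0.636. The core subunit genes differed less, with 0.02 for Grin1, 0.14 for Grin2a, 0.13 for Gria1 and -0.07 for Gria2, and their intervals all included 0.

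Of 24 genes of the postsynaptic scaffold, 22 were higher, with a median of 0.10, or 0.05 against genes of like length. Homer2, which links metabotropic receptors to the scaffold, measured 64.5, 60.3 and 70.9 CPM with the scrambled peptide and 75.9, 83.8 and 65.2 CPM with Cdk5i. Dlg4, the gene of PSD-95, measured 70.3, 75.7 and 83.7 CPM against 83.3, 91.1 and 76.8 CPM. In both genes Cdk5i replicate 3 fell within the scrambled range. The median was 0.16 without that replicate and 0.06 without Cdk5i replicate 2.

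Synaptic adhesion genes, which are long, gave 35 higher of 45 and a median of 0.10, but 0.01 against genes of like length and 0.06 without Cdk5i replicate 1. Cntnap5b and Cntnap4, contactin-associated proteins of the neurexin superfamily, measured 225, 224 and 210 CPM against 264, 258 and 269 CPM, and 136, 147 and 155 CPM against 181, 172 and 165 CPM, and did not overlap between the groups. Of 40 presynaptic release genes 25 were higher, with a median of 0.05, or -0.01 against genes of like length and 0.02 without Cdk5i replicate 1. GABA receptor and inhibitory synapse genes split evenly, 11 of 22 higher, with a median of 0.00 and none with an unadjusted p under 0.05. Whether excitatory and inhibitory synapse genes differ from each other was not tested.

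Voltage-gated channel genes gave 34 higher of 50 and a median of 0.06, or 0.01 against genes of like length. Calcium channel genes were higher in 12 of 13 cases, among them Cacna1c, the pore of L-type channels, with 1813, 1744 and 1869 CPM against 2065, 2122 and 1915 CPM. Potassium channel genes went both ways. Kcnd3, a channel of the A-type current, measured 549, 459 and 507 CPM against 567, 729 and 568 CPM, while Kcna2, a channel of axons, measured 67.6, 75.6 and 62.4 CPM against 58.6, 56.6 and 60.0 CPM. Sodium channel genes were higher in 5 of 10 cases. The median over all channel genes was 0.01 without Cdk5i replicate 1 and 0.11 without Cdk5i replicate 3.

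Of 37 axon guidance genes 31 were higher, with a median of 0.11, or 0.04 against genes of like length, and the median stayed between 0.10 and 0.15 when any 1 library was left out. The ephrin receptor gene Epha6 measured 717, 644 and 642 CPM with the scrambled peptide and 770, 817 and 748 CPM with Cdk5i. Robo2, a receptor of Slit proteins, measured 688, 635 and 665 CPM against 773, 765 and 705 CPM. Plxna1, a semaphorin receptor gene, pointed the other way, with 137, 131 and 123 CPM against 102, 125 and 117 CPM.

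Growth factor signalling genes were higher in 13 of 14 cases, with a median of 0.09, or 0.02 against genes of like length. Ntrk2, the receptor of the neurotrophin BDNF, measured 1019, 987 and 1210 CPM with the scrambled peptide and 1472, 1647 and 1127 CPM with Cdk5i, where Cdk5i replicate 3 lay within the scrambled range (log2 fold change 0.40, 95% interval 0.13 to 0.68). Of 41 chromatin modifier genes 30 were higher, with a median of 0.03. Hdac9, a class IIa histone deacetylase that represses MEF2 targets, measured 604, 588 and 696 CPM against 787, 822 and 681 CPM.

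Genes of the respiratory chain lay on the lower side. Of 73 nuclear-encoded members, 13 were higher and 60 lower, with a median log2 fold change of -0.11, or -0.04 against genes of like length. At an unadjusted p under 0.05, 0 were higher and 7 lower, and 11 lay lower without overlap, beside 2.46 and 5.38% over all genes. All 5 complexes had more members lower than higher, and complex IV, to which Cox5b belongs, had 9 of 10 lower with a median of -0.16. Ndufa11, of complex I, measured 5.90, 6.76 and 4.80 CPM against 4.29, 4.53 and 4.05 CPM. The median was -0.05 without scrambled replicate 2.

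The 9 tested mitochondrially encoded genes were all lower, with a median of -0.21, or -0.13 against genes of like length and -0.04 once the length trend of each library was removed. Transcripts made inside mitochondria are not nuclear RNA, and their share differed within each group. The complex I gene mt-Nd1 measured 12.4 ± 2.06 CPM with the scrambled peptide and 9.37 ± 0.438 CPM with Cdk5i (SD, n = 3), without overlap. The ribosomal RNA gene mt-Rnr2 measured 654, 666 and 470 CPM against 401, 588 and 704 CPM, and overlapped widely. Without scrambled replicate 2 the median was -0.08.

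Among 75 genes of cytosolic ribosomal proteins 61 lay lower, the median being -0.14, or -0.07 against genes of like length, and -0.02 without scrambled replicate 2. Rps15a measured 13.1, 13.9 and 13.1 CPM with the scrambled peptide and 10.1, 11.1 and 10.2 CPM with Cdk5i. Rps7, which lies within 5 Mb of Gm9866, pointed the other way, with 6.02, 5.79 and 5.51 CPM against 7.01, 7.66 and 6.80 CPM. Ribosomal protein genes have many processed copies in the genome, so that their counts are uncertain.

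Genes of sterol and fatty acid synthesis were lower in 24 of 29 cases, with a median of -0.11, or -0.09 against genes of like length. At an unadjusted p under 0.05, 6 were lower and 0 higher, beside 2.46 and 2.87% over all genes. Idi1, an enzyme of the mevalonate pathway, measured 3.55, 3.91 and 3.85 CPM with the scrambled peptide and 2.05, 2.74 and 2.64 CPM with Cdk5i. Fdft1, which makes squalene, measured 46.2, 40.6 and 38.6 CPM against 34.8, 34.9 and 31.4 CPM, and Fasn, the fatty acid synthase, 37.3, 41.0 and 39.4 CPM against 28.0, 34.3 and 35.4 CPM. The sterol regulator genes Srebf2 and Insig1 also lay lower without overlap, with log2 fold changes of -0.20 and -0.31. The list's median was -0.07 without Cdk5i replicate 1.

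Stress and clearance genes showed smaller medians. Of 26 heat shock and chaperone genes 20 were lower, with a median of -0.07, and -0.01 without Cdk5i replicate 1. Hsp90ab1, a cytosolic HSP90, measured 80.0, 108 and 111 CPM against 61.6, 80.6 and 84.6 CPM and overlapped between the groups. Of 39 autophagy and lysosome genes 26 were lower, with a median of -0.05. Gaa, the lysosomal enzyme that digests glycogen, measured 82.8, 90.8 and 75.9 CPM against 57.7, 66.2 and 78.8 CPM, while Atg3 and Gabarapl1, which act in building autophagosomes, and the lysosomal protease gene Ctsb lay lower without overlap, with log2 fold changes of -0.22, -0.20 and -0.17. Of 15 unfolded protein response genes 9 were lower, with a median of -0.06, or -0.02 against genes of like length and -0.0027 without scrambled replicate 2. DNA damage and repair genes split 21 higher and 16 lower, with a median of 0.01.

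Activity-induced genes, which neurons switch on within minutes to hours of firing, varied from library to library more than between peptides. Of 28 tested members 23 were lower, with a median of -0.17, but none had an unadjusted p under 0.05. Their summed level was 725, 676 and 1383 CPM in scrambled replicates 1 to 3 and 665, 1118 and 741 CPM in Cdk5i replicates 1 to 3, so that 1 library of each group stood high. Arc, a regulator of AMPA receptor traffic, measured 18.0, 15.7 and 41.2 CPM against 6.25, 43.5 and 16.3 CPM. Nr4a3, a nuclear receptor gene, measured 22.5, 16.6 and 81.9 CPM against 9.38, 38.1 and 43.2 CPM. The list's median turned to 0.22 without scrambled replicate 3 and was -0.61 without Cdk5i replicate 2.

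Markers of cell classes were compared in the same way. Of 14 pan-neuronal markers 9 were higher, with a median of 0.05, and of 11 markers of excitatory neurons 5, with a median of -0.00. Without Cdk5i replicate 1 the excitatory median was -0.10, and without Cdk5i replicate 3 it was 0.15. Cortical layer markers were higher in 15 of 21 cases, with a median of 0.12, made up of 11 of 13 deep-layer and 4 of 8 upper-layer genes. That median was 0.03 against genes of like length and 0.04 without scrambled replicate 1. Among inhibitory neuron markers 13 of 20 were higher, with a median of 0.06, led by Adarb2 and by Reln, the gene of the matrix protein reelin, with 167, 173 and 184 CPM against 228, 221 and 192 CPM. The inhibitory median was 0.02 without scrambled replicate 1 and 0.12 without scrambled replicate 3. In bulk nuclei, fewer nuclei of a type and less RNA per nucleus cannot be told apart.

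Markers of striatal projection neurons, which lie beneath the cortex and can enter a dissection, were higher in 13 of 16 cases, with a median of 0.19, or 0.24 against genes of like length. Their summed level was 2508, 3377 and 3569 CPM in scrambled replicates 1 to 3 and 4856, 3476 and 3727 CPM in Cdk5i replicates 1 to 3, while wild-type libraries ran from 2447 to 3895 CPM. Cdk5i replicate 1 stood highest and the groups overlapped. Drd2, the dopamine receptor of indirect-pathway neurons, measured 35.4, 58.9 and 48.5 CPM against 89.6, 42.3 and 69.8 CPM, and Pde10a, a phosphodiesterase of those neurons, 1279, 1647 and 1831 CPM against 2379, 2079 and 1747 CPM. The median was 0.05 without scrambled replicate 1 and 0.38 without Cdk5i replicate 2, and the part of this marker difference in the other results was not tested.

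Oligodendrocyte markers were lower in 9 of 11 cases, with a median of -0.29, both as measured and against genes of like length. Enpp2, the gene of autotaxin, which myelin-forming cells and the choroid plexus both express, measured 96.2, 102 and 101 CPM with the scrambled peptide and 95.1, 74.2 and 75.9 CPM with Cdk5i. The myelin gene Mbp measured 79.5, 60.3 and 91.6 CPM against 79.8, 107 and 59.5 CPM, and the groups overlapped. The median was -0.16 without scrambled replicate 1. Mog and Opalin, which define these cells, had at most 10 counts in any of the 6 libraries. The summed level of the list ran from 195 to 223 CPM with the scrambled peptide, from 165 to 210 CPM with Cdk5i and from 166 to 175 CPM in wild type. Vascular markers were lower in 6 of 8 tested cases with a median of -0.27 (-0.46 without Cdk5i replicate 2 and -0.16 without Cdk5i replicate 3), at levels under 2 CPM for Flt1, Pecam1, Rgs5 and Abcb1a. Astrocyte markers split 7 and 7, with a median of -0.01.

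**Figure D5:**
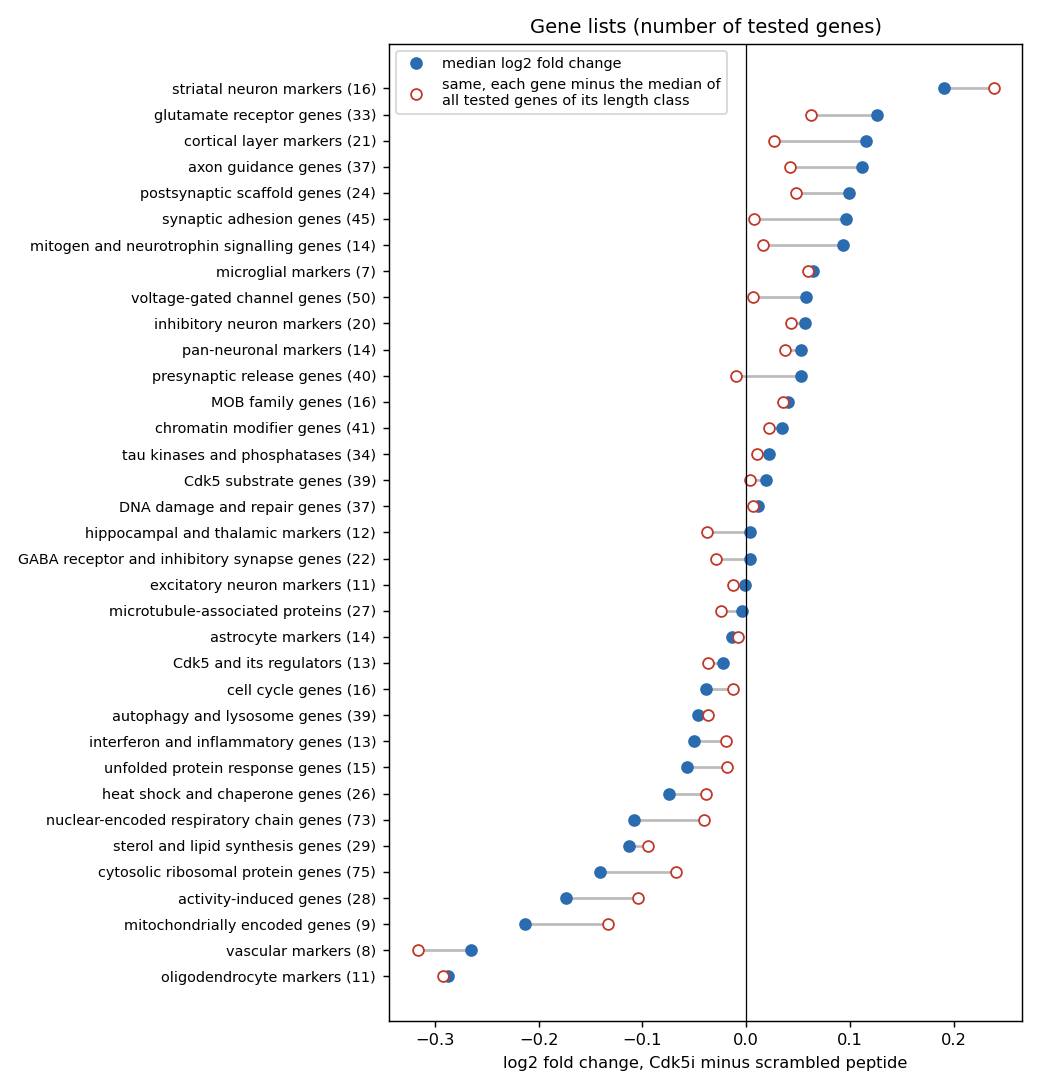
Median log2 fold change of Cdk5i minus scrambled peptide (horizontal axis) for each gene list with at least 5 tested members (vertical axis, number of tested genes in parentheses). Filled points are the medians as measured, and open points the medians after subtracting from each gene the median of its length class. Synaptic adhesion genes go from 0.10 to 0.01 and respiratory chain genes from -0.11 to -0.04, while striatal markers go from 0.19 to 0.24 and oligodendrocyte markers stay at -0.29.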

How the data were processed

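NeuN-positive nuclei were sequenced with a stranded total RNA kit and paired reads of 40 bases, per the labels' protocols. The deposited values are whole-number counts per gene, which the authors made with featureCounts 2.0.0 on whole genes (introns included) of Ensembl release 102, per the file headers. Alignment with STAR 2.7.9a to GRCm38 is taken from the submitters' processing notes. Read pairs in genes overlapping on 1 strand were left out by that counting.

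All 9 libraries were fitted in edgeR 4.0.16 (R 4.3.3; robust quasi-likelihood test, TMM, filterByExpr with a minimum count of 10, Benjamini-Hochberg at 0.05). CPM are counts scaled to library totals with TMM factors, and intervals are 95%. DESeq2 1.42.0 and limma 3.58.1 were alternatives. The procedure was tested on simulated data. Named genes were those past the threshold, the 15 higher and 15 lower of lowest p with a mean count of 50 or more and no overlap, leaving out predicted genes, and list members. Genes of p under 0.001 were added after their values were seen. The members and the 37 lists were chosen with earlier results of these data known.

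Libraries of 1 group differed by more than sampling noise. Reads were counted without molecular identifiers. Values of a few listed genes are not reported here.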

Additional observations from a re-analysis of the deposited data

How the results depend on the processing

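Mob3b and Gm9866 passed the threshold under all 15 alternatives, with log2 fold changes of 2.84 to 3.10 and 0.76 to 0.94. The count of genes past the threshold was 2 with limma-voom, DESeq2 size factors, a filter of 50 counts, only the P301S libraries or non-robust dispersion. It was 27 (21 higher, 6 lower) with DESeq2 and 159 (124 higher, 35 lower) without a filter on low counts, which tested 32394 genes. Leaving out 1 library at a time gave 2 to 18 genes, of them 2 to 11 higher and 0 to 7 lower, with the highest count without scrambled replicate 3 and 7 without scrambled replicate 1 or Cdk5i replicate 1. The counts without Cdk5i replicates 2 and 3 were 3 and 6. The causes were not tested.

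With the replicate number as a block the same 2 genes passed. The labels do not say whether equal numbers pair the samples. Deviations from the group mean correlated at -0.22, -0.13 and -0.26 in same-numbered libraries and at -0.03 to 0.22 in the other pairs. Such correlations cannot show whether samples were handled together.

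The difference between long and short genes stayed between 0.08 and 0.19 under the other alternatives (exact permutation p from 0.1 to 0.4). It was -0.0012 once each library's length trend was removed, which this alternative does by construction (exact permutation p = 0.7). Depth limits the low genes, since those under 2 CPM had a median standard error of 0.36, beside 0.08 above 200 CPM. Leaving out 1 library also moved list medians close to 0. Those of chromatin modifiers (0.01 without scrambled replicate 1 to 0.07 without scrambled replicate 3), pan-neuronal markers (0.02 without Cdk5i replicate 2 to 0.10 without scrambled replicate 3) and sterol genes (to -0.20 without Cdk5i replicate 2) kept their sign. Those of DNA damage genes (-0.02 without scrambled replicate 3), Cdk5 substrates (-0.01 without Cdk5i replicate 2), Cdk5 regulators (0.01 without scrambled replicate 1), microglial markers (-0.18 without Cdk5i replicate 1), microtubule-associated proteins (0.02 without scrambled replicate 3) and inhibitory synapse genes (-0.02 without Cdk5i replicate 1) changed sign.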
